A study of Mus musculus with 67 samples.

Results

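The expression of 10 genes of the Notch pathway and the secretory lineage switch was followed in mouse intestinal organoids and crypts. They were the receptors Notch1 and Notch2, the ligands Dll1, Dll4 and Jag1, the target and feedback genes Hes1, Heyl and Nrarp, the related factor Hes6, and Atoh1, the transcription factor at the entry to the secretory lineages. The members were chosen by name, and 10 of 10 were among the 29579 genes of the deposited table. Bulk RNA-seq had been done on 67 libraries, 49 from organoids in 10 media and 18 from crypts in 9 groups of 2.

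ENR organoids (n = 7) grew with EGF at 50 ng/mL, Noggin at 100 ng/mL and R-Spondin 1 at 500 ng/mL. Hyperplastic organoids (8C, n = 7) grew in a medium of 8 components. Its growth factors were bFGF at 20 ng/mL and EGF at 50 ng/mL, with R-Spondin 1 given as conditioned medium at 10%. Its small molecules were LDN193189 (a BMP receptor inhibitor) at 0.2 μM, GSK-3 Inhibitor XV at 0.1 μM, Pexmetinib (a kinase inhibitor) at 1 μM, VPA (valproic acid, a histone deacetylase inhibitor) at 500 μM and EPZ6438 (an inhibitor of the H3K27 methyltransferase EZH2) at 2 μM. The 8C medium was also used without VPA (8C -V, n = 6), without EPZ6438 (8C -E, n = 7) or without both (8C -VE, n = 7). A further 4 media each lacked EGF, bFGF, the GSK-3 inhibitor or Pexmetinib (8C -EGF, 8C -bFGF, 8C -GSK3i and 8C -Pex, n = 3 each). VPA and EPZ6438 were also added to ENR medium (ENR +VE, n = 3), at doses that the labels do not give. Crypts came from the proximal small intestine of unirradiated mice (Normal) or of mice 1, 2, 3 and 5 days after irradiation (IR), with or without both drugs (+VE). By the study's methods, the mice were 8 weeks old, received a single dose of 12 Gy, and were gavaged daily with VPA at 40 mg/kg and EPZ6438 at 0.6 mg/kg. Organoids were started from mice of 6 to 12 weeks. The study counts mice for its bulk data of some organoid media and of day 3 crypts, but neither it nor the labels tie single libraries to separate cultures or animals, so p-values measure the spread between libraries, which may be technical.

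In the Notch pathway, a Delta or Jagged ligand on one cell binds a Notch receptor on its neighbour, which is then cleaved and acts in the nucleus with RBPJ. In the intestinal crypt, cells that receive the signal express Hes1, a repressor of Atoh1, and stay as stem cells or take the absorptive path. Cells that escape it express Atoh1 together with Dll1 and Dll4, and give rise to Paneth, goblet, enteroendocrine and tuft cells. Dll1 and Dll4 are thus both ligands of the pathway and marks of early secretory cells. Nrarp is a direct Notch target whose product dampens the signal, and Heyl belongs to the Hes-related family.

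The promoters of Atoh1, Dll4 and Dll1 are shown because these were the 3 members that were lower in 8C than in ENR organoids and that moved again when VPA or EPZ6438 was removed. Each is the 250 bases before a RefSeq start site in GRCm38.p6, 5′ to 3′ on the gene's strand, with the letters CACGCG (a site class bound by HES repressors), on either strand, in capitals. They lie at chr6:64728875-64729124 (plus strand), chr2:119325534-119325783 (plus strand) and chr17:15376933-15377182 (minus strand).
Atoh1: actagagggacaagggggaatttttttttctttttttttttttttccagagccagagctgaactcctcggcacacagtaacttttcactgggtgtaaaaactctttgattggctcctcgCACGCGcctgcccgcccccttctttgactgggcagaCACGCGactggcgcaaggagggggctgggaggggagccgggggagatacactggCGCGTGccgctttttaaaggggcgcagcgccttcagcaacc
Dll4: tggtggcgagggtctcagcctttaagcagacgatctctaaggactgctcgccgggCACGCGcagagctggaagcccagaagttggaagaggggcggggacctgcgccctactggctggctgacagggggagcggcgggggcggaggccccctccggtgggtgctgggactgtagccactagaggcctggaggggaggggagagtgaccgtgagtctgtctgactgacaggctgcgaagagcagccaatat
Dll1: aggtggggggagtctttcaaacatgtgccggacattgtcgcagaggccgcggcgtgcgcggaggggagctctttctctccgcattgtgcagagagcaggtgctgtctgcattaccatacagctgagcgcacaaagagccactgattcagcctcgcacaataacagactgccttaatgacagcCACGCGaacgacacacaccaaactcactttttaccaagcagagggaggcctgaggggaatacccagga

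In the Atoh1 promoter the 3 matches began at positions -131, -95 and -41 from the start site, and a 4th began at 16 within the 50 bases after it. The single matches began at -195 in Dll4 and at -68 in Dll1. The Dll1 start site used lies 60 bases beyond the end of the GENCODE gene, and a second Dll1 window held none of the motifs searched. The windows searched ran from 250 bases before to 50 bases after a start site. Over 32851 such RefSeq windows, 9.27% held CACGCG, 1.67% held it at 2 or more places and 0.0761% at 4 or more. The other motifs searched, also on both strands, were GTGGGAA (the letters bound by RBPJ) in 6.38% of windows, CACNAG (the N box) in 42.5% and CACGTG (an E box) in 7.15%. No member window held GTGGGAA. Jag1 held CACGCG at 2 places and Notch2 at 1, and Nrarp held CACGTG at 1. CACNAG was held at 3 places by Notch1, at 2 by Nrarp and by a Hes6 window, and at 1 by Dll4, Notch2, Atoh1 and Dll1, and 11.3% of all windows held it at 2 or more. The Notch1 start site used lies 12841 bases inside the GENCODE gene, and that of this Hes6 window 816 bases inside it. A match is a description of these letters only. Of the 10 members, 8 had a RefSeq window, and Hes1 and Heyl are named only. In GRCm38 coordinates Atoh1 spans chr6:64729125-64731245, Dll4 chr2:119325784-119335962, Dll1 chr17:15367354-15376872 and Hes1 chr16:30064384-30067796.

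Values are TPM, a gene's share of all transcripts in a library, scaled for gene length and to a fixed total, so that read depth is unknown and no counting interval can be given. The deposited columns summed to between 983801 and 988144 in organoid libraries and to between 819346 and 910935 in crypt libraries. The mitochondrial gene mt-Atp8 took at most 0.00148% of the column in organoids and 5.29 to 24.3% in crypts, so levels were not compared between the 2 sets. For each library, log2(TPM + 1) was taken as the deviation from the gene's mean over its set, organoids or crypts. The slope of that deviation on gene length ran from -0.16 to 0.15 per doubling in organoids and from -0.26 to 0.20 in crypts. The epithelial marker Epcam averaged 1727 TPM in organoids and 646 TPM in crypts. In organoids, 10 of 12 endothelial markers had a mean under 1 TPM, Cdh5 and Kdr being listed at 0 in 45 and 41 of 49 libraries, while Esam (mean 12.9 TPM) and Egfl7 (mean 19.1 TPM) were present in every library. All 14 immune markers had a mean under 1 TPM there. In bulk RNA, fewer cells of a type and less RNA per cell cannot be told apart.

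The comparison of 8C with ENR organoids asks how the hyperplastic state differs from the homeostatic one. Atoh1, Dll1 and Dll4 were lower in 8C organoids, and no member was higher. Atoh1 was at 2.38 to 6.89 TPM in 8C (median 5.18) and at 7.62 to 15.8 TPM in ENR (median 12.8). The 2 ranges did not overlap. The difference was -1.27 ± 0.20 (SE) in log2(TPM + 1), with an adjusted p of 7.15e-05 by limma over all 12665 genes tested. Fold changes on this scale understate the change of genes near 1 TPM. Dll1 was at 9.85 to 14.8 TPM in 8C (median 11.8) and at 17.6 to 35.1 TPM in ENR (median 22.6). Its difference was -1.03 ± 0.16 (adjusted p = 6.75e-05), also without overlap. Dll4 was at 5.17 to 9.98 TPM in 8C (median 6.62) and at 11.04 to 14.1 TPM in ENR (median 12.7). Its difference was -0.78 ± 0.13 (adjusted p = 0.000226), and every 8C library was below every ENR library. Of 9 members tested, 3 were therefore called, all lower. Over all genes the same rule (adjusted p under 0.05, no fold minimum) called 35.1%, 3212 higher and 1228 lower, and 2588 higher and 2689 lower after quantile normalization. The median difference was -0.44 over the members and 0.08 over all genes. With replicate numbers 1 to 3 alone the Dll4 difference was -0.53 (adjusted p = 0.0526), and with numbers 4 to 6 alone it was -0.93 (adjusted p = 0.000439).

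The receptors, Jag1, Hes1, Hes6 and Nrarp did not pass the test between 8C and ENR, although 3 of them did under another scaling. Notch1 was called after quantile normalization (-0.69, adjusted p = 0.00118) and after removal of the trend with gene length (-0.54, adjusted p = 0.000388). Hes1 was called after the length correction (-0.49, adjusted p = 0.0213) and Nrarp after quantile normalization (-0.76, adjusted p = 0.0388). Notch1 was at 5.84 to 17.98 TPM in 8C and 11.3 to 20.7 TPM in ENR, a difference of -0.49 ± 0.21 (adjusted p = 0.0852). Without 8C replicate 3 that difference was -0.62 (adjusted p = 0.0228). Notch2 differed by 0.18 (adjusted p = 0.517), with 4.78 to 15.8 TPM in 8C. Hes1 was at 53.3 to 77.6 TPM in 8C (median 70.2) and 54.8 to 122 TPM in ENR (median 76.5). Its difference of -0.32 ± 0.17 (adjusted p = 0.172) became -0.42 (adjusted p = 0.0462) without ENR replicate 7. Within replicate numbers 4 to 6 it was -0.82 (adjusted p = 0.000970), and Jag1 was then 0.67 higher in 8C (adjusted p = 0.00512). Over all libraries Jag1 differed by 0.06 ± 0.27 (adjusted p = 0.894). Hes6, which encodes a factor that antagonises Hes1, was the most abundant member per length, at 169 to 332 TPM over all organoid libraries, and differed by 0.27 ± 0.12 (adjusted p = 0.108). Nrarp differed by -0.44 ± 0.31 (adjusted p = 0.298). Heyl was listed at 0 in 32 of 49 organoid libraries, reached 0.453 TPM at most, and was not tested.

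**Figure D1:**
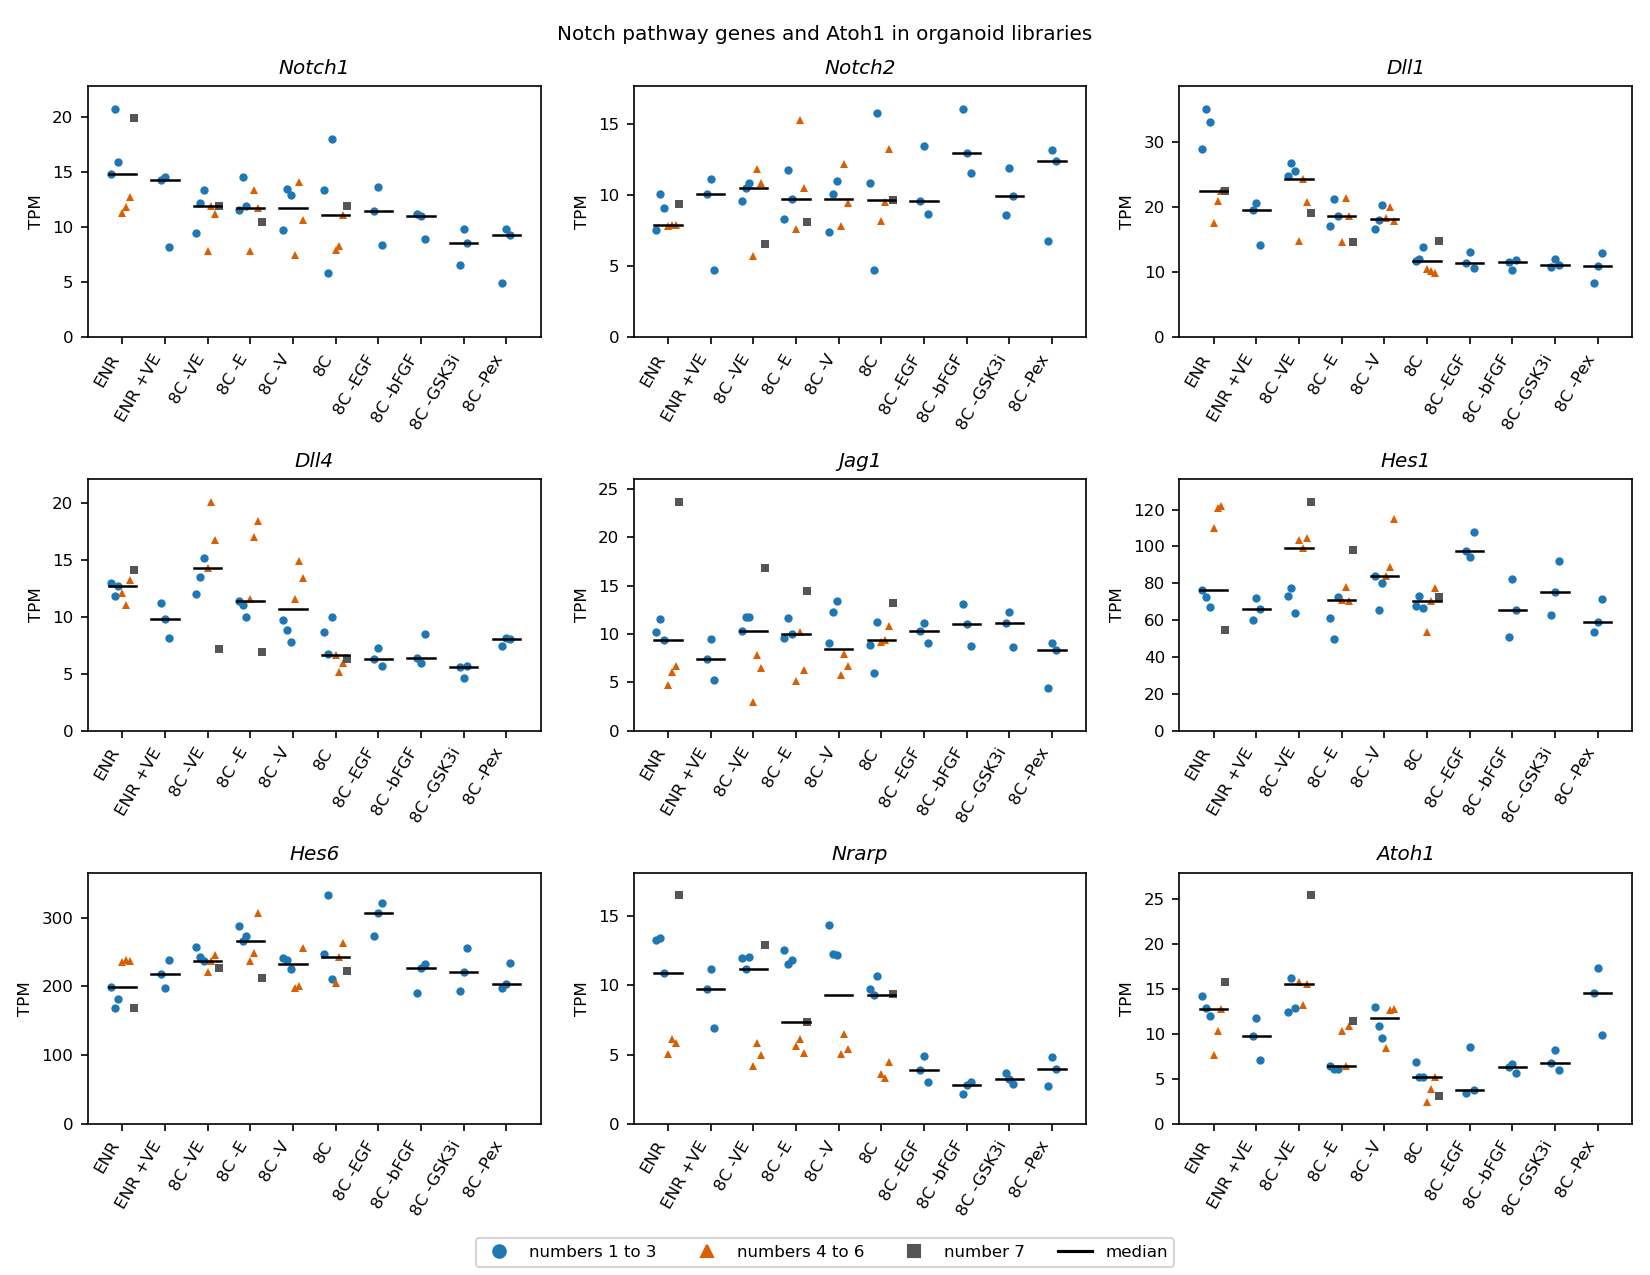
TPM (vertical axis, linear) of the 9 members tested in organoids, in each of 49 libraries, by medium (horizontal axis). Each point is 1 library, its shape gives the set of replicate numbers and the line is the group's median. The 8C libraries of Atoh1 (2.38 to 6.89 TPM) and Dll1 (9.85 to 14.8 TPM) lie below all ENR libraries of the same gene.

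Across the 10 media, Atoh1 had its highest median in 8C -VE (15.6 TPM), followed by 8C -Pex, ENR, 8C -V, ENR +VE, 8C -GSK3i, 8C -E, 8C -bFGF, 8C and 8C -EGF (3.76 TPM). Each pair of neighbours in that order overlapped in range. Dll1 was highest in 8C -VE (median 24.3 TPM), then in ENR, ENR +VE, 8C -E and 8C -V. The lowest 8C -V library (16.7 TPM) was above the highest 8C library (14.8 TPM), which was the only gap between neighbours for this gene. The 4 media that lacked another single component lay at 8.35 to 13.1 TPM of Dll1, beside 8C. For Dll4 the order was 8C -VE, ENR, 8C -E, 8C -V and ENR +VE, then a gap to 8C -Pex, 8C, 8C -bFGF and 8C -EGF, and a second gap to 8C -GSK3i (4.66 to 5.65 TPM). These gaps hold between neighbours only, since 8C (5.17 to 9.98 TPM) overlapped 8C -VE, 8C -E, 8C -V, ENR +VE and 8C -GSK3i. Nrarp had a gap between 8C -E (5.09 to 12.5 TPM) and the 4 media that lack another single component (2.15 to 4.88 TPM), although 8C libraries reached down to 3.31 TPM. Hes1, Hes6, Notch1, Notch2 and Jag1 showed no gap between neighbours.

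The media 8C -VE and ENR differed in their other components and neither held VPA or EPZ6438. No member of 9 was called, 2 had an unadjusted p under 0.05, and 9.35% of all genes were called. Notch1 was at 7.83 to 13.4 TPM in 8C -VE, a difference from ENR of -0.41 ± 0.15 (adjusted p = 0.114). With the replicate number as a block, Notch1 was called (adjusted p = 0.0277). Atoh1 was at 12.4 to 25.4 TPM in 8C -VE, with 0.35 ± 0.17 against ENR (adjusted p = 0.243). Dll1 (-0.19), Dll4 (0.11) and Hes1 (0.08) did not pass the test either.

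The comparison of 8C with 8C -VE asks what the 2 drugs changed together. Again 3 of 9 members were lower with the drugs and none was higher, against 23.4% of all genes called. Atoh1 fell by 1.62 ± 0.20 on the log2 scale (adjusted p = 1.11e-05), from 12.4 to 25.4 TPM to the 8C range of 2.38 to 6.89 TPM, without overlap. Dll1 differed by -0.85 ± 0.15 (adjusted p = 0.00034), and the 2 ranges touched at 14.8 TPM. Dll4 differed by -0.89 ± 0.19 (adjusted p = 0.00277), although its 8C -VE range of 7.13 to 20.0 TPM overlapped that of 8C. Hes1 was at 63.9 to 124 TPM in 8C -VE, and its difference of -0.39 ± 0.14 missed the threshold (adjusted p = 0.0556). Without 8C -VE replicate 1 or replicate 3 the Hes1 difference passed (adjusted p = 0.0171 to 0.0409). It also passed after removal of the trend with gene length (-0.51, adjusted p = 0.0126), with replicate numbers 4 to 6 alone (-0.62, adjusted p = 0.0099) and with the replicate block (adjusted p = 0.0362). The comparisons with 8C share the 8C libraries, and those with 8C -VE share the 8C -VE libraries.

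Adding VPA alone (8C -E against 8C -VE) lowered Atoh1. It was at 6.06 to 11.4 TPM in 8C -E (median 6.47), below every 8C -VE library, a difference of -0.88 ± 0.18 (adjusted p = 0.00455). It was the only member of 9 called, against 10.6% of all genes, and within replicate numbers 4 to 6 it differed by -0.66 (adjusted p = 0.0847). With the replicate number as a block, Dll1 (-0.28 ± 0.14, adjusted p = 0.27) had an adjusted p of 0.00911 and Hes1 (-0.36 ± 0.16, adjusted p = 0.219) of 0.00913, so 3 members were called. Adding EPZ6438 alone (8C -V against 8C -VE) gave no call among 9 members, 1 with an unadjusted p under 0.05, against 6.05% of all genes. Atoh1 was at 8.44 to 12.9 TPM in 8C -V (median 11.8) and differed by -0.45 ± 0.16 (adjusted p = 0.163). With the block, Atoh1 (-0.34, adjusted p = 0.0383) and Dll4 (-0.45, adjusted p = 0.00356) were called. The difference between the effects of VPA and EPZ6438 was not tested.

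Removing either drug from the full 8C medium raised Atoh1, Dll1 and Dll4, 3 of 9 members in each case. Without VPA (8C -V against 8C), where 12.1% of all genes were called, Atoh1 rose by 1.17 ± 0.20 (adjusted p = 0.000881). Dll1 was at 16.7 to 20.3 TPM in 8C -V and rose by 0.61 ± 0.12 (adjusted p = 0.00379). Neither gene overlapped between the groups. Dll4 was at 7.78 to 14.9 TPM and rose by 0.58 ± 0.18 (adjusted p = 0.0468). That call was lost with the block (0.56, adjusted p = 0.111) and in 9 of 13 fits that left out 1 library (8C -V replicate 1, 4, 5 or 6, or 8C replicate 2, 4, 5, 6 or 7, adjusted p = 0.0556 to 0.116). With replicate numbers 1 to 3 alone, Dll4 differed by 0.06 (adjusted p = 0.895) and Dll1 by 0.51 (adjusted p = 0.0846). Hes1 differed by 0.31 ± 0.13 (adjusted p = 0.132), and Nrarp by 0.34 ± 0.31 (adjusted p = 0.554, with the block 0.41 and 0.0478).

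Without EPZ6438 (8C -E against 8C), where 6.77% of all genes were called, Dll1 rose by 0.56 ± 0.13 (adjusted p = 0.0114), with 14.6 to 21.4 TPM in 8C -E. Dll4 was at 6.90 to 18.4 TPM and rose by 0.70 ± 0.19 (adjusted p = 0.0389). Atoh1 rose by 0.74 ± 0.21 (adjusted p = 0.0415). All 3 genes overlapped between these groups. The Atoh1 call was lost in 8 of 14 fits without 1 library (8C -E replicate 1, 4, 6 or 7, or 8C replicate 4, 5, 6 or 7). The Dll4 call was lost in 10 of 14 (8C -E replicate 1, 2, 4, 5 or 6, or 8C replicate 2, 4, 5, 6 or 7). Adjusted p in those fits was 0.0502 to 0.0914 for Atoh1 and 0.0604 to 0.0928 for Dll4. With the replicate number as a block, Dll4 (adjusted p = 0.0512) and Atoh1 (adjusted p = 0.0668) were not called, and Dll1 was (adjusted p = 0.0167). Within replicate numbers 1 to 3, Dll1 differed by 0.55 (adjusted p = 0.0757), Dll4 by 0.34 (adjusted p = 0.37) and Atoh1 by 0.098 (adjusted p = 0.778). For Atoh1 the difference within numbers 4 to 6 was 1.104 (adjusted p = 0.0142). In the 5 comparisons among 8C, 8C -V, 8C -E and 8C -VE, Notch1, Notch2 and Hes6 differed by -0.11 to 0.14 and none was called. Whether the effect of 1 drug depended on the other was tested as an interaction over the 4 media with and without each drug. No member of 9 passed (0 with an unadjusted p under 0.05) and 0.653% of all genes did. For Atoh1 the interaction was -0.29 ± 0.27 (adjusted p = 1). With the replicate block, Nrarp was called (-0.50, adjusted p = 0.0409).

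In ENR medium no member of 9 was called with the 2 drugs, while 20.7% of all genes were called and 1 member had an unadjusted p under 0.05. Atoh1 was at 9.77, 11.8 and 7.07 TPM in ENR +VE replicates 1 to 3, the first 2 within the range of ENR and the last below its lowest library (7.62 TPM), with -0.32 ± 0.21 (adjusted p = 0.35). Dll4 was at 8.16 to 11.2 TPM and differed by -0.35 ± 0.13 (adjusted p = 0.0778). Dll1 was at 14.2 to 20.7 TPM and differed by -0.46 ± 0.22 (adjusted p = 0.171). With replicate numbers 1 to 3 of both groups, Dll1 differed by -0.81 (adjusted p = 0.00511). After quantile normalization 4 members were called, Notch1 (-0.52, adjusted p = 0.0222), Dll1 (-0.62, adjusted p = 0.0112), Dll4 (-0.61, adjusted p = 0.00503) and Atoh1 (-0.59, adjusted p = 0.0217). After removal of the trend with gene length, Dll1 (-0.60) and Dll4 (-0.49) were called. The doses in ENR +VE are not given, so the sizes in ENR and in the 8C medium are set side by side only. The interaction of medium and drugs was called for Atoh1 alone among 9 members, against 0.643% of all genes. It was -1.30 ± 0.31 (adjusted p = 0.0474), the change in the 8C medium minus that in ENR. That call was lost in 19 of 24 fits without 1 library (-1.48 to -1.15, adjusted p = 0.0532 to 0.262), and it held only without 8C replicate 1, 2 or 3, ENR replicate 7 or 8C -VE replicate 1. ENR +VE has only replicate numbers 1 to 3, and with those numbers in every group the interaction was -0.69 (adjusted p = 0.192), as it was with the replicate block (adjusted p = 0.203).

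**Figure D2:**
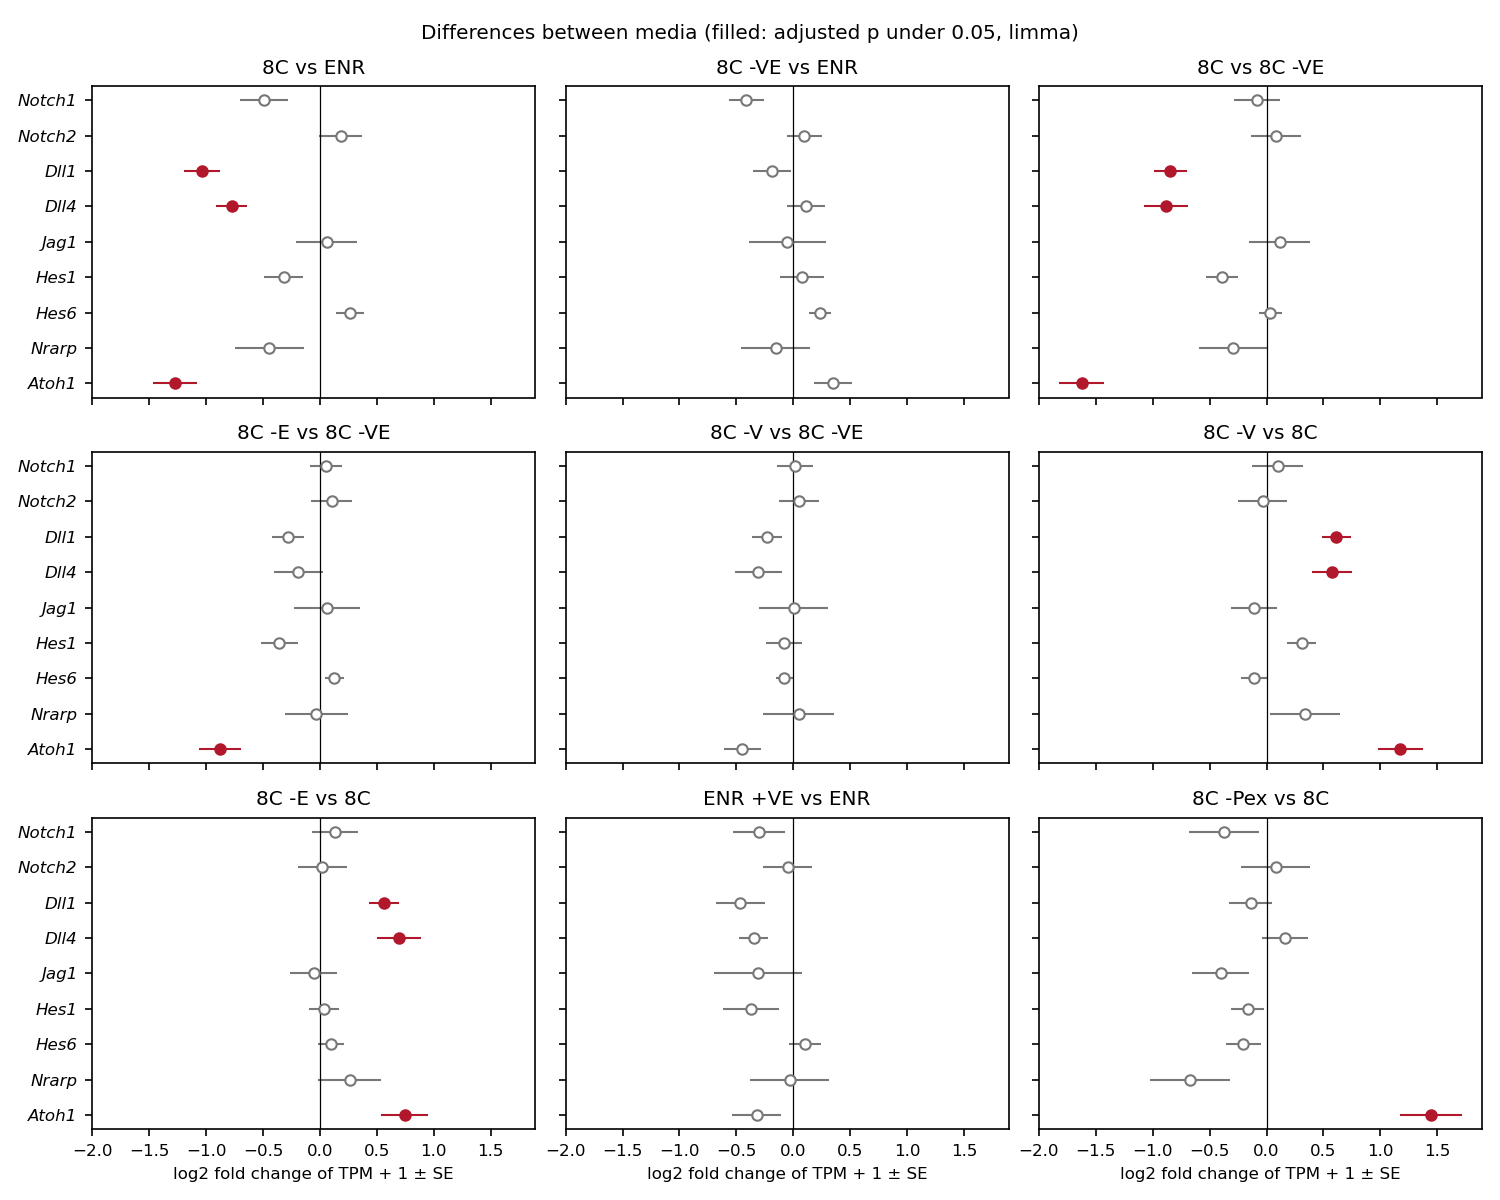
Differences of the members in 9 organoid comparisons, as log2 fold change of TPM + 1 (horizontal axis) with bars of 1 SE. Filled points passed an adjusted p of 0.05. Atoh1 lies at -1.27 in 8C against ENR and at 1.17 in 8C -V against 8C.

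Leaving out another single component of the 8C medium moved few members. Without Pexmetinib, Atoh1 was at 14.5, 17.3 and 9.88 TPM in replicates 1 to 3, above all 7 libraries of 8C. It rose by 1.44 ± 0.27 (adjusted p = 0.0416), the only call among 9 members, against 0.591% of all genes. The call was lost in 7 of 10 fits without 1 library (8C replicate 3, 5, 6 or 7, or any 8C -Pex replicate, adjusted p = 0.0576 to 0.302). It was also lost with a pseudocount of 0.1 TPM and with a minimum mean of 5 TPM or none. It held against 8C replicates 4 to 6 alone (1.64, adjusted p = 0.0212) and against replicates 1 to 3 alone (1.11, adjusted p = 0.0295). After quantile normalization it was 1.56 (adjusted p = 0.0384). Without EGF, Hes1 was at 97.5, 94.1 and 108 TPM, above the 8C maximum of 77.6 TPM, with 0.54 ± 0.13 (adjusted p = 0.108). No member was called there (1 with an unadjusted p under 0.05) and 0.514% of all genes were. Against 8C replicates 4 to 6 alone the Hes1 difference was 0.58 (adjusted p = 0.0312). Without bFGF, 0.00779% of all genes were called, no member was, and 1 member had an unadjusted p under 0.05. That member was Nrarp, at 2.15 to 3.05 TPM and below every 8C library, with -1.06 ± 0.34 (adjusted p = 0.831). Without the GSK-3 inhibitor no gene was called (0%), although 836 genes and 2 members had an unadjusted p under 0.05, among them Atoh1 with 0.57 ± 0.26 (adjusted p = 0.763).

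Nrarp differed between replicate numbers within a medium. In each of ENR, 8C -VE, 8C -E, 8C -V and 8C, the libraries numbered 4 to 6 lay below those numbered 1 to 3, and the mean of 1 to 3 was 2.14 to 2.60 times that of 4 to 6. The same pattern was found in 897 of 12461 genes (7.2%), and the opposite one in 272 (2.18%), with no member. Against 8C replicates 1 to 3, Nrarp was lower in the media that lack EGF (-1.16, adjusted p = 0.019), bFGF (-1.58, adjusted p = 0.00422), the GSK-3 inhibitor (-1.35, adjusted p = 0.00328) or Pexmetinib (-1.19, adjusted p = 0.0178). Against 8C replicates 4 to 6 none was called, with differences of 0.03, -0.39, -0.16 and -0.0037. The labels do not say what the numbers mark. Other members also split by number in some media. In numbers 4 to 6, Jag1 was lower in ENR, 8C -VE and 8C -V, Dll1 was lower in ENR, 8C -VE and 8C, and Hes1 was higher in ENR and 8C -VE. In ENR, Notch1 was also lower (11.3 to 12.8 against 14.9 to 20.7 TPM) and Hes6 higher (235 to 238 against 169 to 200 TPM). The Hes6 difference of 8C from ENR was 0.50 (adjusted p = 0.069) with numbers 1 to 3 and -0.0061 (adjusted p = 0.964) with numbers 4 to 6. Dll4 was higher in 8C -E and 8C -V and lower in 8C, and Atoh1 was higher in 8C -E and lower in 8C.

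**Figure D3:**
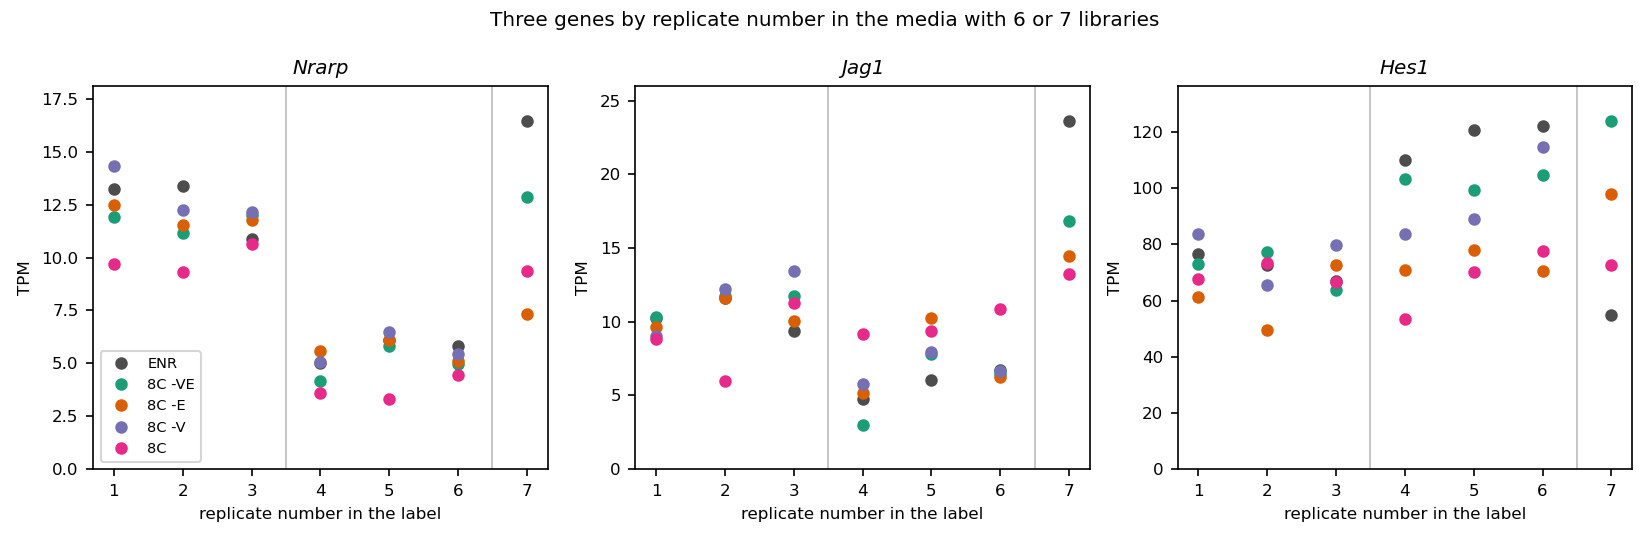
TPM (vertical axis) of Nrarp, Jag1 and Hes1 by replicate number (horizontal axis) in 5 organoid media, 1 point per library. For Nrarp, numbers 4 to 6 lie below numbers 1 to 3 in all 5 media.

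The level of Atoh1 relative to Hes1 was taken within each library. At the median it was 17.8% in ENR, 17.0% in 8C -VE, 13.02% in 8C -V, 11.6% in 8C -E and 6.67% in 8C. It was 27.0% in 8C -Pex and 3.55% in 8C -EGF. As log2 ratios, 8C lay at -4.56 to -3.30 and 8C -VE at -2.91 to -2.26, without overlap, while ENR spread from -3.85 to -1.80. Hes1 was not called higher in 8C against ENR or against 8C -VE.

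**Figure D4:**
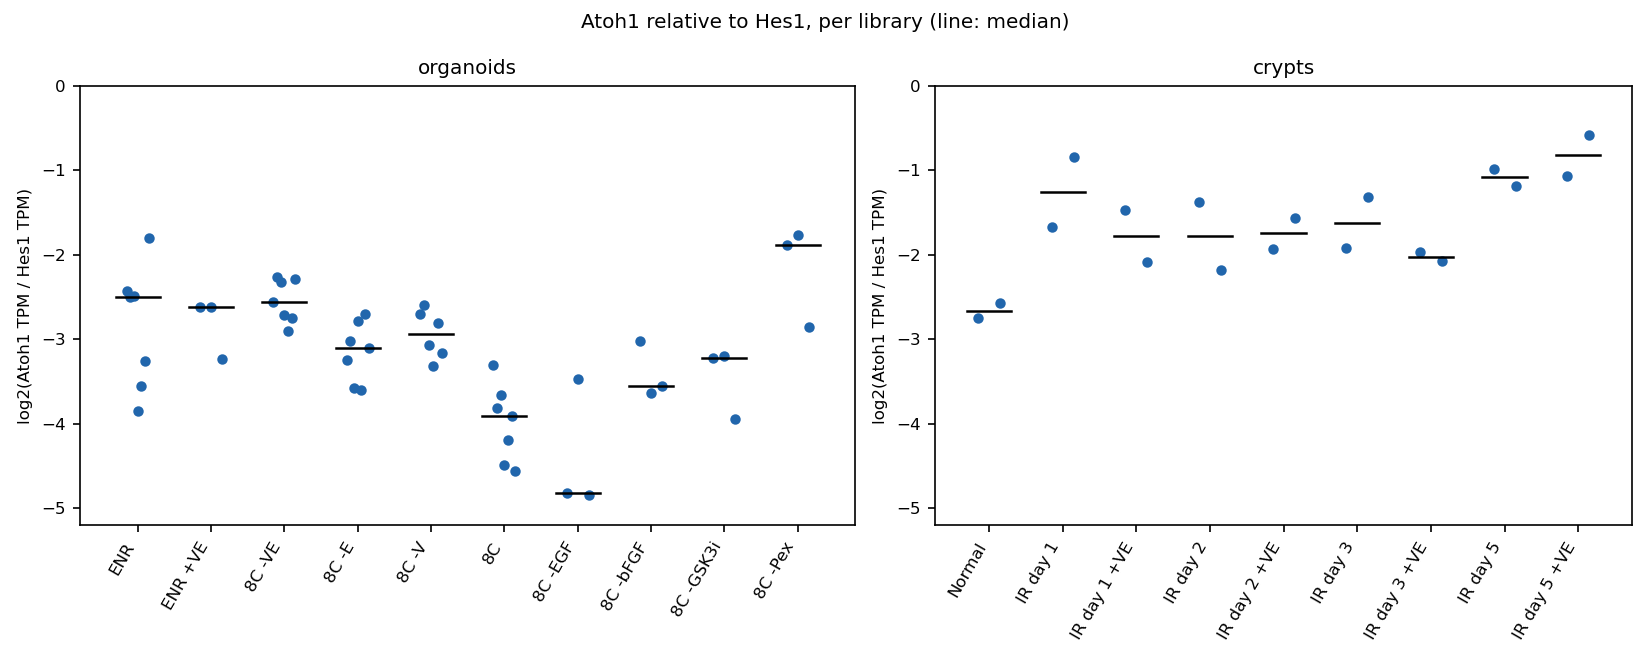
Log2 ratio of Atoh1 to Hes1 TPM (vertical axis) in each library, by organoid medium and by crypt group (horizontal axis), with a line at each median. The 8C libraries lie at -4.56 to -3.30, and IR day 5 crypts at -1.18 to -0.98.

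The genes whose means over the 10 media were most like Atoh1 by Pearson's r were Ang4 (0.99), a Paneth cell antimicrobial, followed by Ano7 (0.94), Tmc4 (0.93), Cnppd1 (0.93) and Tle4 (0.92). Ang4 averaged 655 ± 291 TPM in 8C -VE (SD, n = 7) and 231 ± 55.0 TPM in 8C. Among members, Dll4 (0.71) and Dll1 (0.61) were the most like Atoh1, and Hes1 was at 0.05. The genes most like Hes1 were Herpud1 (0.92), Fam53a (0.91), Tfrc (0.90), Cbfa2t2 (0.89) and Kat2a (0.89). These 10 points share components of their media and some share replicate numbers, so the values are descriptions.

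Other genes of the pathway were taken from lists by role, and their counts in 8C against ENR stand beside the 35.1% of all genes called, of which 3212 were higher and 1228 lower. Of 5 other receptors and ligands tested against ENR, 3 were higher and 1 lower. Notch3, a receptor, averaged 13.03 ± 5.45 TPM in 8C and 1.55 ± 1.38 TPM in ENR (SD, n = 7 each), a rise of 2.49 ± 0.31 (adjusted p = 7.84e-06). The ligand Jag2 rose by 0.64 (adjusted p = 0.00749) and Dner, a Notch ligand of the Delta/Notch-like type, by 0.51 (adjusted p = 0.0201). Notch4 fell by 0.53 (adjusted p = 0.0152). Notch3 is also a pericyte marker, and it was the only one of 9 pericyte and smooth muscle markers with a mean of 1 TPM or more over the 49 organoid libraries. The summed endothelial markers were at 33.2 to 55.9 TPM in 8C and 10.9 to 18.8 TPM in ENR, led by Egfl7. The pericyte and smooth muscle markers, Notch3 included, summed to 4.91 to 26.7 TPM in 8C and 1.12 to 5.98 TPM in ENR. The fibroblast markers summed to 18.2 to 27.9 TPM in 8C and 5.52 to 13.1 TPM in ENR, led by Vim, while Col1a2 and Dcn were listed at 0 in 38 and 37 of 49 libraries. Their part in the result was not tested.

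Of 18 genes of receptor processing and ligand uptake, 5 were higher and none lower in 8C than in ENR (35.1% of all genes called). Aph1b, a subunit of gamma-secretase, rose by 2.25 ± 0.19 (adjusted p = 1.09e-07), Neurl1a, a ubiquitin ligase, by 1.56 ± 0.16, and Mfng, a Fringe glycosyltransferase, by 1.02 ± 0.20. Of 8 genes of the nuclear complex and targets, 1 was higher, Hes5 by 1.02 ± 0.36 (adjusted p = 0.0358). Of 9 modulators, 2 were higher and 1 lower. Dtx3, a Deltex family ubiquitin ligase, rose by 3.64 ± 0.19 (adjusted p = 3.52e-10), Numbl by 0.77, and Numb, an inhibitor of Notch, fell by 0.45 (adjusted p = 0.0379). Against 8C -VE, Notch3 was higher in 8C by 2.19, Aph1b by 1.98, Neurl1a by 1.72 and Dtx3 by 2.54, all called. In ENR +VE against ENR, Notch3 (1.56), Aph1b (1.82) and Dtx3 (2.68) were also higher. With VPA alone in the 8C medium, Aph1b (1.51) and Dtx3 (1.95) were higher, and with EPZ6438 alone Dll3 (1.06), Mfng (0.67) and Aph1b (0.66) were.

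Of 16 secretory lineage factors tested in 8C against ENR, 3 were higher and 2 lower, against 35.1% of all genes called. Neurog3, which directs enteroendocrine fate, rose by 1.41 ± 0.33 (adjusted p = 0.00336). Spdef, a factor of goblet and Paneth maturation, fell by 1.17 ± 0.31 (adjusted p = 0.00719), and Bhlha15, a factor of secretory cells, by 1.27 ± 0.35. In ENR +VE, 7 of 17 were higher and none was lower (20.7% of all genes called), and Neurog3 rose by 1.68. Of 12 absorptive factors in 8C against ENR, 2 were higher and 3 lower, the latter Hnf4g (-1.72), Cdx1 (-0.73) and Gata6 (-0.60).

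Markers of mature cells differed between media. In 8C against ENR (35.1% of all genes called), 7 of 9 Paneth, 9 of 10 goblet, 6 of 7 tuft and 11 of 12 enterocyte markers were lower, while of 12 enteroendocrine markers 2 were higher and 2 lower. Their median differences were -2.35, -1.78, -1.44, -2.61 and 0.25. The Paneth marker Defa30 fell by 4.95 and the goblet marker Zg16 by 4.32. Against 8C -VE (23.4%), 8 of 9 Paneth, 5 of 10 goblet and 4 of 6 tuft markers were lower. When VPA was left out (8C -V against 8C, 12.1%), 8 of 9 Paneth, 8 of 10 goblet and 5 of 7 tuft markers were higher. When EPZ6438 was left out (8C -E against 8C, 6.77%), 2 of 9 Paneth and none of 10 goblet markers were higher, and 8 of 12 enteroendocrine markers were lower. Without Pexmetinib (0.591%), 5 of 6 tuft, 4 of 10 goblet and 2 of 9 Paneth markers were higher, and the enteroendocrine markers summed to 2721 to 4038 TPM against 777 to 2525 TPM in 8C. In 8C -EGF, where the median of Atoh1 was lowest, Atoh1 was at 3.46, 8.51 and 3.76 TPM and was not called against 8C. The Paneth markers there summed to 6985 to 7969 TPM, above each 8C library (1279 to 4975 TPM). In ENR +VE, where Atoh1 was not called, the Paneth markers summed to 5545 to 6000 TPM, below each ENR library (13694 to 16981 TPM). Ang4, one of the Paneth markers, was the gene most like Atoh1 over the 10 media (r = 0.99). These sums were not tested. The part of cell numbers in the values of Atoh1, Dll1 and Dll4 was not tested.

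In crypts, the fits used all 18 libraries, and 8 members had a mean of 1 TPM or more. Notch2 (at most 1.12 TPM) and Heyl (at most 0.705 TPM) were not tested. After irradiation, Hes1 was lower at days 2 and 3 and Dll1 at days 2, 3 and 5, and at day 1 the call of Hes1 depended on the scaling. Hes1 was at 30.2 and 45.0 TPM in Normal crypts, 10.5 and 21.7 at day 1, 7.78 and 10.2 at day 2, 5.01 and 5.39 at day 3, and 21.7 and 24.9 at day 5. The difference from Normal was -1.23 ± 0.28 at day 1 (adjusted p = 0.0141), -1.93 ± 0.28 at day 2 (adjusted p = 0.000126) and -2.61 ± 0.28 at day 3 (adjusted p = 3.4e-06). Dll1 was at 9.70 and 10.0 TPM in Normal crypts, 2.67 and 8.42 at day 1, 1.84 and 3.11 at day 2, 0.350 and 0.464 at day 3, and 2.14 and 4.46 at day 5. Its difference was -1.67 ± 0.37 at day 2 (adjusted p = 0.00223) and -2.95 ± 0.37 at day 3 (adjusted p = 1.04e-05).

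At day 1 Hes1 was the only member of 8 called (4 with an unadjusted p under 0.05), against 12.8% of all genes, and the call was lost without IR day 1 replicate 2 or Normal replicate 2, with quantile normalization (-0.82, adjusted p = 0.0633) and after removal of the trend with gene length (-0.83, adjusted p = 0.0804). Dll1 was called at day 1 without IR day 1 replicate 1 (-1.57, adjusted p = 0.00435), and Notch1 without Normal replicate 1 (-1.42, adjusted p = 0.0312). At day 2, 5 of 8 members were lower, against 52.9% of all genes. Beside Hes1 and Dll1 these were Atoh1 (-0.93 ± 0.27, adjusted p = 0.0102), Nrarp (-0.74 ± 0.24, adjusted p = 0.0172) and Hes6 (-0.55 ± 0.21, adjusted p = 0.0374). Each of these last 3 was lost without Normal replicate 2, Atoh1 also without IR day 2 replicate 2, and Nrarp and Hes6 also without IR day 2 replicate 1. After quantile normalization none of the 3 was called (Atoh1 -0.23, Nrarp -0.041 and Hes6 -0.034), while Hes1 (-1.30, adjusted p = 0.00162) and Dll1 (-0.97, adjusted p = 0.0134) were. At day 3 all 8 members tested were lower, against 74.4% of all genes. Beside Hes1 and Dll1, the differences were -1.52 ± 0.26 for Dll4, -1.502 ± 0.40 for Notch1, -1.34 ± 0.27 for Atoh1, -1.27 ± 0.24 for Nrarp, -0.80 ± 0.29 for Jag1 and -0.50 ± 0.21 for Hes6. The adjusted p was between 3.4e-06 (Hes1) and 0.0406 (Hes6). Without 1 library, Jag1 was lost in 3 fits (either IR day 3 library or Normal replicate 2), Hes6 in 2 (IR day 3 replicate 1 or Normal replicate 2) and Notch1 in 1 (Normal replicate 2). Notch1 at day 2 was called without Normal replicate 1 or IR day 2 replicate 1 (-1.71 and -1.28).

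The libraries of days 1 to 3 stood apart from Normal in ways that bear on every gene. Their mt-Atp8 share was 17.5 to 18.8% at day 1, 15.6 to 23.2% at day 2 and 20.8 to 24.3% at day 3, against 5.29 to 8.81% in Normal crypts. At day 1 9519 to 10694 genes reached 1 TPM, at day 2 9370 to 9712 and at day 3 8152 to 8564, against 10606 to 11089. The median over all genes was -0.36 at day 1 and -0.61 at day 2. At day 3 it was -1.03, with 424 genes higher and 7614 lower, and quantile normalization gave 2465 higher and 2692 lower. Relative to that median, Dll1 was at -1.91 and Hes1 at -1.58, while Dll4 (-0.48), Notch1 (-0.47), Atoh1 (-0.31) and Nrarp (-0.23) were nearer to it and Jag1 (0.24) and Hes6 (0.53) were above it. The scale of log2(TPM + 1) understates falls to under 1 TPM, so this order is not one of fold change in TPM. Notch1 went from 0.772 and 4.13 TPM in Normal crypts to 0.0656 and 0.0624 TPM at day 3. Jag1 went from 0.970 and 1.63 TPM to 0.317 and 0.296 TPM. After quantile normalization Dll1 (-2.18, adjusted p = 4.37e-05), Hes1 (-1.39, adjusted p = 0.000725), Notch1 (-1.16) and Dll4 (-0.72) were still lower, Atoh1 (-0.14), Nrarp (-0.02) and Jag1 (-0.19) were not called, and Hes6 was higher (0.49, adjusted p = 0.0229). After removal of the trend with gene length, Dll1 (-1.87, adjusted p = 0.000349) and Hes1 (-1.76, adjusted p = 0.000287) were the members called, and Notch1 (-0.18, adjusted p = 0.664) and Dll4 (-0.47, adjusted p = 0.0702) were not. Quantile normalization also moved the splits from 227 higher and 1151 lower to 542 and 309 at day 1, and from 745 and 4966 to 1938 and 1830 at day 2. Of other markers at day 3, 10 of 12 enterocyte and 7 of 9 stem cell markers were lower. These counts stand beside 7614 lower genes among the 10802 tested, with 74.4% of all genes called. The immune markers summed to 166 to 607 TPM at day 3 and 204 to 601 TPM in Normal crypts. Their part in the members' values was not tested.

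At day 5, 2 of 8 members were called, in opposite directions, against 27.2% of all genes. Atoh1 was at 10.98 and 10.99 TPM, above the Normal values of 4.49 and 7.60 TPM, and was 0.80 ± 0.27 higher (adjusted p = 0.0365). That call was lost without either IR day 5 library or without Normal replicate 1, after quantile normalization (0.53, adjusted p = 0.0626) and after removal of the trend with gene length (0.73, adjusted p = 0.0506). Dll1 fell by 1.39 ± 0.37 (adjusted p = 0.0123), a call that was lost without IR day 5 replicate 2 or Normal replicate 1. Notch1 was called at day 5 without Normal replicate 1 (-1.66, adjusted p = 0.00805), its Normal values being 0.772 and 4.13 TPM. The Atoh1 to Hes1 level was 47.3% at day 5 and 15.8% in Normal crypts at the median, as the plot of log2 ratios shows. At days 1, 2 and 3 it was 41.8%, 29.2% and 32.6%. The slope on gene length was 0.16 to 0.20 at day 5 against -0.19 to -0.09 in Normal crypts, and after its removal Notch1 (-1.40, adjusted p = 0.00681) and Dll4 (-0.59, adjusted p = 0.0447) were called. After quantile normalization Hes1 (-0.93, adjusted p = 0.0164) and Hes6 (-0.48, adjusted p = 0.0391) were called. The immune markers summed to 14.3 to 17.8 TPM at day 5, and their part in the result was not tested.

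**Figure D5:**
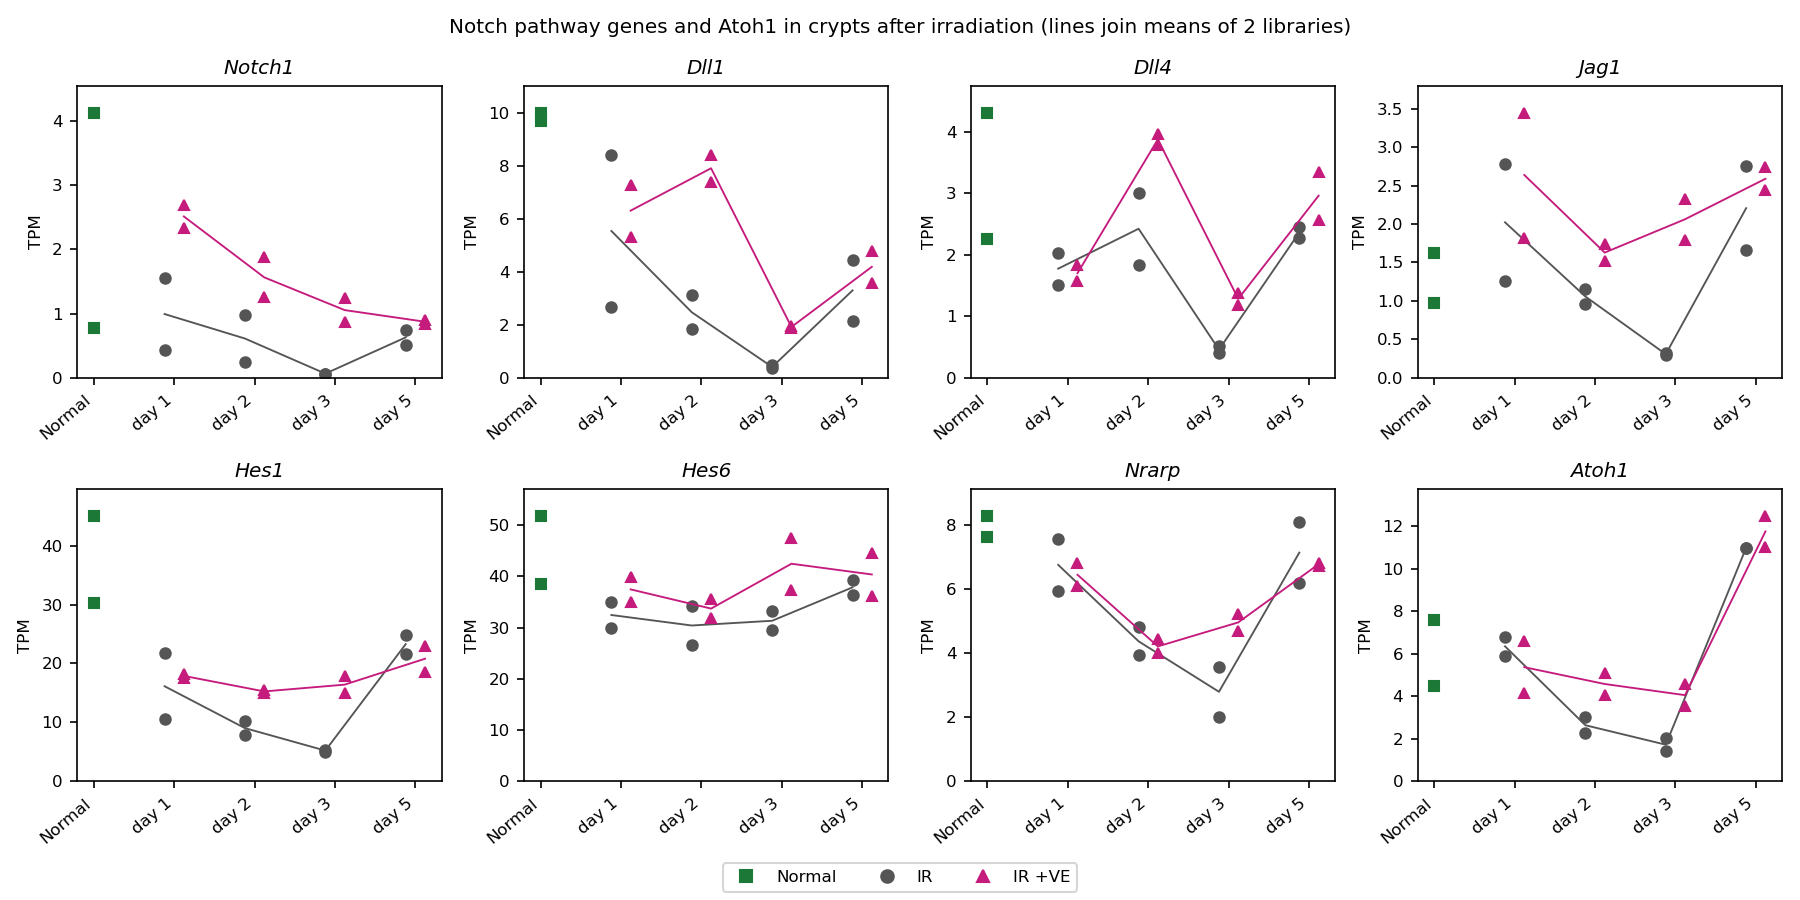
TPM (vertical axis) of the 8 members tested in crypts by day after irradiation (horizontal axis), 1 point per library, with Normal crypts at the left, IR and +VE crypts in separate symbols, lines through the means of 2 libraries, and days drawn as evenly spaced categories. Hes1 at day 3 lies at 5.01 and 5.39 TPM, and at 14.96 and 17.8 TPM with VPA and EPZ6438.

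The comparison of +VE with IR crypts on the same day asks what the 2 drugs changed after irradiation. At day 3, 6 of 8 members were higher with the drugs, against 52.5% of all genes, 5650 higher and 16 lower. Hes1 was at 14.96 and 17.8 TPM with the drugs, higher by 1.48 ± 0.28 (adjusted p = 0.000919). Jag1 was at 1.80 and 2.33 TPM against 0.296 and 0.317 TPM, higher by 1.22 ± 0.29 (adjusted p = 0.00316). Dll1 (1.05 ± 0.37, adjusted p = 0.0264), Atoh1 (0.89 ± 0.27, adjusted p = 0.0117), Nrarp (0.68 ± 0.24, adjusted p = 0.0255) and Dll4 (0.65 ± 0.26, adjusted p = 0.0446) were also called. Dll1 and Dll4 were lost in every one of 4 fits without 1 library, Nrarp in 3 (IR day 3 replicate 1 and either +VE library) and Atoh1 in 2 (IR day 3 replicate 1 and +VE replicate 1).

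The all-gene median of that comparison was 0.69. Relative to it, Hes1 was at 0.79, Jag1 at 0.53, Dll1 at 0.36, Notch1 at 0.25 and Atoh1 at 0.20, while Nrarp (-0.01), Dll4 (-0.05) and Hes6 (-0.28) were at or below it. After quantile normalization, with 1753 genes higher and 1178 lower, Jag1 was the only member called (0.74, adjusted p = 0.0215). Hes1 was then at 0.64 (adjusted p = 0.0728), Atoh1 at -0.08, Dll4 at -0.03 and Nrarp at -0.32. After removal of the trend with gene length, Hes1 was the only member called (1.02, adjusted p = 0.0271), and Jag1 was at 0.26 (adjusted p = 0.387). The share of mt-Atp8 was 14.4 to 23.2% with the drugs at day 3, and the slope on gene length was -0.02 to 0.10 against -0.26 to -0.20 without them. The summed levels of several marker lists did not overlap between the 2 groups, and were not tested. With the drugs, stem cell markers summed to 111 and 126 TPM against 34.1 and 46.3 TPM, tuft markers to 13.3 and 16.5 TPM against 5.17 and 8.68 TPM, Paneth markers to 30487 and 43576 TPM against 14580 and 29665 TPM, and the general epithelial markers to 7904 and 8415 TPM against 4236 and 6394 TPM. The goblet, enteroendocrine, enterocyte and immune sums overlapped. Fibroblast markers summed to 24.2 and 45.9 TPM against 12.8 and 15.1 TPM, pericyte and smooth muscle markers to 4.80 and 5.21 TPM against 1.62 and 1.71 TPM, and endothelial markers to 6.38 and 8.99 TPM against 3.92 and 5.14 TPM. Their part in the members' values was not tested.

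At day 2, Dll1 was at 7.41 and 8.42 TPM with the drugs and was higher by 1.38 ± 0.37 (adjusted p = 0.0356), the only call among 8 members, against 14.6% of all genes (1575 higher, 7 lower, and none under quantile normalization). The Dll1 call was lost without IR day 2 replicate 2 or either +VE library. It was also lost after quantile normalization (0.82, adjusted p = 0.166) and after removal of the trend with gene length. The slope on gene length was 0.08 to 0.10 with the drugs at day 2 and -0.16 to -0.03 without them. The part of cell numbers in this difference was not tested. At day 1 no member was called (1 with an unadjusted p under 0.05), against 0.00926% of all genes. At day 5 no member was called (0 with an unadjusted p under 0.05), against 0.0185% of all genes, and Atoh1 was at 11.03 and 12.5 TPM. Whether the effect of the drugs differed between days was tested with an interaction over the 4 days. No member of 8 passed (2 with an unadjusted p under 0.05), against 1.75% of all genes. The nearest was Hes1 (adjusted p = 0.0738), followed by Atoh1 (0.156) and Jag1 (0.224). Hes1 passed without either IR day 1 library (adjusted p = 0.00437 and 0.0162) and Dll1 without IR day 1 replicate 2 (adjusted p = 0.0255).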

How the data were processed

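Per the labels and the study's methods, the authors trimmed reads with Trimmomatic 0.39, aligned them to mm10 with STAR 2.7.3a, counted them with featureCounts and deposited TPM values. How TPM was computed and with which annotation is not given in the sources used here. TPM keeps no read depth, so precision rests on the number of libraries. The members and the gene lists were chosen with earlier results of these data known. Genes averaging 1 TPM or more in a fit's libraries were tested on log2(TPM + 1) with limma 3.58.1 in R 4.3.3 (trend and robust), with Benjamini-Hochberg adjustment over all genes tested. Organoid comparisons were fitted pairwise and interactions over their groups, and crypts in 1 fit of 18 libraries. Genes named beside the members were the 3 called with the largest change in each direction of a list and the 5 most like Hes1 or Atoh1. Same-numbered libraries deviated together in every pair for 8C -VE against ENR (r = 0.31 to 0.64) and 8C -E against 8C -VE (0.65 to 0.78). The same held for 8C -V against 8C -VE (0.71 to 0.80) and 8C -V against 8C (0.14 to 0.56). It held more weakly in some pairs for 8C -E against 8C (0.04 to 0.80) and 8C against 8C -VE (0.06 to 0.64). Blocked values stand beside these comparisons. In simulated data for 8C against ENR, 78 of 100 genes changed by 1 on the log2 scale and 96 of 100 changed by 2 were recovered, for VE by day 5 and 53. Alternatives were other pseudocounts, minimums, scalings, replicate sets, blocks, a 2-fold minimum and leaving out each library. Promoter windows and motifs came from a RefSeq table for GRCm38.p6, and gene coordinates from GENCODE M21.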

Additional observations from a re-analysis of the deposited data

Results flagged for a closer look

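In 5 of 50 combinations of a member and a group of 4 to 10 libraries, 1 library lay far from the others by Dixon's criterion, where chance gives about 1 in 20. That rate does not hold for Heyl, which is near 0, and where all other libraries are at 0 any value above 0 meets the criterion. Jag1 was at 23.6 TPM in ENR replicate 7 and at 4.73 to 11.6 TPM in the other ENR libraries. Atoh1 was at 25.4 TPM in 8C -VE replicate 7 and at 12.4 to 16.2 TPM in the others. Heyl was at 0.0413 TPM in ENR replicate 3, at 0.043 TPM in 8C -VE replicate 2 and at 0.453 TPM in 8C -V replicate 5, where the others were at 0 in ENR and 8C -VE and at most 0.0594 TPM in 8C -V. The change of Atoh1 with VPA and EPZ6438 differed between the 8C medium and ENR by -1.30 in log2(TPM + 1), by the test of the interaction. The call was lost in 19 of 24 fits without 1 library, and the value was -0.69 with replicate numbers 1 to 3 alone or with the replicate block.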

How the results depend on the processing

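Over the values of single members, settings other than leaving out a library kept the side of the threshold in 1996 cases. They lost a call in 94, gained one in 65 and changed the sign of a called difference in 10. Leaving out a library gave 2057, 88 and 12, with no reversal of a call. Over all of these settings, 249 uncalled differences changed sign and stayed uncalled. The 10 reversals of a called difference were all in crypts. At day 2 against Normal, Hes6 was at 0.055 with scaling to the 75th percentile and 0.014 after removal of the trend with exon length. At day 3 it was at 0.49 with quantile normalization, 0.74 with the 75th percentile and 0.31 after the length correction, under which Jag1 was at 0.34. At day 3 with the drugs, quantile normalization gave -0.032 for Dll4, -0.32 for Nrarp and -0.079 for Atoh1, and the length correction -0.14 for Dll4. The cause was not tested.

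The number of members called also moved. For 8C against ENR (3) it was 5 with quantile normalization, the length correction or all 10 media in 1 fit, and 6 with replicate numbers 4 to 6. For 8C -VE against ENR (0) it was 1 with quantile normalization, the 75th percentile or the length correction, and 3 with numbers 1 to 3. A 2-fold minimum left 1 for 8C against 8C -VE (3), 0 for 8C -E against 8C -VE (1), 1 for 8C -V against 8C (3) and 0 for 8C -E against 8C (3). For 8C -E against 8C -VE it was 2 with quantile normalization, the length correction or numbers 1 to 3. It was 2 for 8C -V against 8C -VE (0) with numbers 1 to 3. For 8C -V against 8C it was 1 with numbers 1 to 3 and 6 with numbers 4 to 6, and for 8C -E against 8C 0 with numbers 1 to 3 and 1 with the 75th percentile or a minimum of 5 TPM. For ENR +VE against ENR (0) it was 4 with quantile normalization, 2 with the length correction, and 1 with all 10 media or numbers 1 to 3. With numbers 1 to 3 it was 2 for 8C -EGF (0) and 8C -Pex (1) and 1 for 8C -bFGF (0) and 8C -GSK3i (0), and with 8C replicates 4 to 6 as the reference 1 for 8C -EGF. For 8C -Pex it was 0 with a pseudocount of 0.1 TPM, a minimum of 5 TPM or none. For medium by VE (1) it was 0 with that pseudocount, the 75th percentile, a minimum of 5 TPM, the length correction or numbers 1 to 3.

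In crypts at day 1 (1) it was 0 with quantile normalization, the 75th percentile, the length correction or the compared groups alone. At day 2 (5) it was 2 with a 2-fold minimum, quantile normalization, the 75th percentile or the length correction, and 3 with the compared groups alone. At day 3 (8) it was 5 with quantile normalization or the 75th percentile, 4 with a minimum of 5 TPM and 2 with the length correction. At day 5 (2) it was 1 with a 2-fold minimum, the other pseudocount, a minimum of 5 TPM or none, or the compared groups alone. For +VE at day 2 (1) it was 0 with quantile normalization, the 75th percentile, a minimum of 5 TPM or none, or the length correction, and 2 with the compared groups alone. For +VE at day 3 (6) it was 3 with a 2-fold minimum or a minimum of 5 TPM, and 1 with quantile normalization (Jag1) or the length correction (Hes1). For VE by day (0) it was 1 with the other pseudocount. Without 1 library, the count was 1 to 3 for 8C -E against 8C, 0 to 1 for 8C -Pex and for medium by VE, 0 to 2 at day 1, 2 to 6 at day 2, 5 to 8 at day 3, 0 to 2 at day 5, 0 to 1 for +VE at day 2, 2 to 4 for +VE at day 3 and 0 to 2 for VE by day.

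With the replicate number as a block, the count was 1 for 8C -VE against ENR, 3 for 8C -E against 8C -VE, 2 for 8C -V against 8C -VE, 1 for 8C -E against 8C (Dll4 0.0512 and Atoh1 0.0668), 3 for ENR +VE against ENR (Dll1, Jag1 and Nrarp), 1 for 8C -bFGF (Nrarp -1.58, adjusted p = 0.0161), 1 for 8C -GSK3i (Nrarp -1.35, adjusted p = 0.0243), 0 for 8C -Pex (Atoh1 1.11, adjusted p = 0.0676), 1 for VPA by EPZ6438 (Nrarp -0.50, adjusted p = 0.0409) and 0 for medium by VE (Atoh1 -0.69, adjusted p = 0.203). Nrarp in 8C against ENR (adjusted p = 0.0151) and Hes1 in 8C against 8C -VE (adjusted p = 0.0362) were called with it. Apart from the pairings named above, same-numbered libraries did not deviate together in every organoid pair, and they share only a number. Each library was most like its own number in 6 of 7 pairs for 8C against ENR, 4 of 7 for 8C against 8C -VE and for 8C -E against 8C, and 0 or 1 of 3 for the small groups. For 8C -EGF, 8C -bFGF, 8C -GSK3i and 8C -Pex, the mean r with same-numbered 8C libraries was -0.27 to -0.10. Their blocked values therefore pair libraries that did not deviate together and use 8C replicates 1 to 3 only. Against 8C replicates 4 to 6, Nrarp was not called in any of them.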
